A study of Homo sapiens with 4 samples.

Results

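The 10 genes described here encode subunits of Polycomb repressive complex 2 (PRC2), namely EZH1, EZH2, SUZ12, EED, RBBP4, RBBP7, JARID2, PHF19, MTF2 and PHF1. They were chosen by name as subunits of the complex, with earlier results of these data known, and all 10 were found among the 18885 genes in the deposited table. The measurements were RNA-seq levels in MV4-11, a human acute myeloid leukemia (AML) cell line. The control group (NC) had 2 libraries and the group with ANP32B knocked down by a short hairpin RNA (sh-ANP32B) had 2 libraries. ANP32B is a nuclear acidic protein that binds histones. The sample labels give no shRNA and no treatment for NC, whereas the methods of the study name an sh-NC control. If the NC cells carried no hairpin, effects of transduction and puromycin selection cannot be told apart from the loss of ANP32B. The knockdown columns carry the mark S3 and were taken as a single hairpin, so an effect of that hairpin on other RNAs cannot be told apart from the knockdown either. The time from transduction to harvest is not given in the sources used here.

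PRC2 places methyl groups on lysine 27 of histone H3 (H3K27), a mark of silenced developmental genes. EZH2 or its paralog EZH1 is the methyltransferase, SUZ12 is the scaffold, EED binds the methylated product and stimulates the enzyme, and RBBP4 or RBBP7 binds histones. A Polycomb-like protein (PHF1, MTF2 or PHF19) joins one form of the complex, called PRC2.1, and JARID2 with AEBP2 joins the other, called PRC2.2. EZH2 is known as the form of dividing cells and EZH1 as the form that persists in resting cells, and both loss and excess of PRC2 are known in myeloid leukemia.

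Levels were deposited as TPM, a measure of transcript abundance that is scaled by gene length and by the total of each library. Totals ran from 997271 to 998546 TPM, and TPM keep no read numbers, so the depth is unknown. ANP32B itself was at 358 and 364 TPM in NC and at 54.1 and 49.3 TPM in sh-ANP32B, or 14.3% of the NC mean. Mitochondrial genes held 15.9% and 15.4% of the TPM in NC, and 17.6% and 17.4% in sh-ANP32B. The label of a myeloid line was checked against marker genes. Of 9 myeloid blast markers, 8 were listed, and MPO, a defining marker, was not. ANPEP, PTPRC, CD4 and CD33 were higher in sh-ANP32B, MEIS1 was lower (44.2 and 47.9 TPM in NC, 30.2 and 29.6 TPM in sh-ANP32B), and FLT3, KIT and HOXA9 did not pass the test. FLT3, at 5.52 to 6.30 TPM, and KIT, at 1.17 to 3.48 TPM, were low in all 4 libraries. None of 6 erythroid and megakaryocyte markers was listed, and neither were the T cell markers CD3D, CD3E and CD8A. The labels do not say that the libraries of a group came from separate cultures, so the p-values measure only the spread between these libraries, which may be technical.

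After ANP32B knockdown, 6 of the 10 PRC2 genes fell, 1 rose and 3 did not pass the test. EZH2, RBBP7, PHF19, RBBP4, MTF2 and SUZ12 were lower, and PHF1 was higher. The test was limma's, on the scale log2(TPM + 1), and it ran over the 16937 genes that reached 1 TPM in 2 or more libraries, all 10 PRC2 genes included. A gene was called at a Benjamini-Hochberg adjusted p below 0.05. Among all genes tested, 19.7% were called lower and 26.0% were called higher, 45.7% in either direction. The median log2 fold change of the 10 PRC2 genes was -0.38, with 9 negative values and 1 positive value, whereas the median of all genes tested was 0.08 and the middle 50% of them lay between -0.26 and 0.45. That background moved with the scaling, to 0.01 with median-of-ratios scaling, to -0.04 with quantile normalization and to 0.12 when TPM were rescaled without mitochondrial genes. These 7 members were also called, in the same direction, under each of the 11 other filters, scalings, blocks and left-out libraries tried, with EZH1 added under median-of-ratios scaling.

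The summed level of the 10 genes was 795 and 825 TPM in NC, and 561 and 555 TPM in sh-ANP32B. Both knockdown libraries were below both control libraries in this sum. Without overlap between the groups, 8 of the members were lower and 1 was higher, against 32.1% and 42.5% of all genes tested. The study's methods name a p under 0.05 and a log2 fold change past 0.5, without saying whether p was adjusted. With both limits and the unadjusted p of limma, 4 members were lower (EZH2, RBBP7, PHF19 and RBBP4) and 1 was higher (PHF1), against 10.8% and 20.2% of all genes tested. The same 5 members passed with the adjusted p in its place, against 10.1% and 17.9%. The plot of TPM per library shows the levels, and the plot of fold changes places each member on the distribution of all genes.

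**Figure D1:**
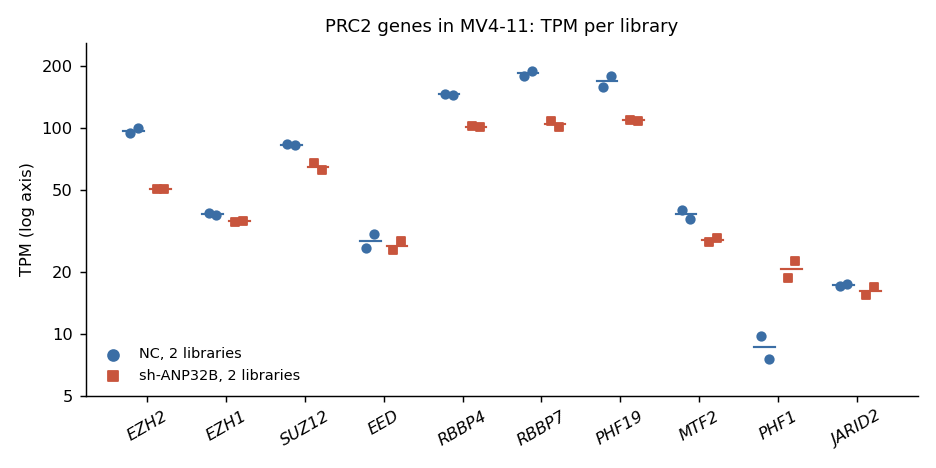
TPM of each PRC2 gene on a log axis, with 1 point per library (circles, NC; squares, sh-ANP32B) and a short line at the mean of each group of 2. The points of EZH2, RBBP7, PHF19 and RBBP4 sit clearly lower in sh-ANP32B, those of PHF1 sit higher, and those of EED overlap.

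**Figure D2:**
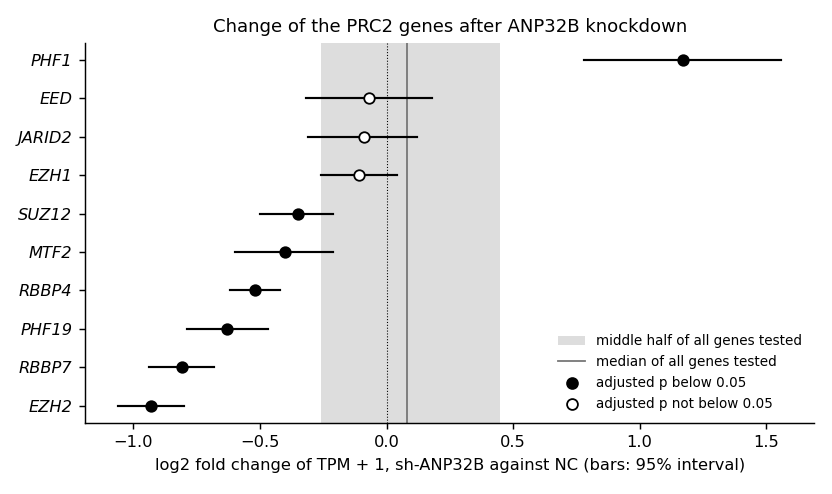
Log2 fold change of TPM + 1 in sh-ANP32B against NC for each PRC2 gene, with its 95% interval from limma, beside the median of all 16937 genes tested (0.08). EZH2 is farthest to the left at -0.93, PHF1 stands alone on the right at 1.17, and the intervals of EED, JARID2 and EZH1 cross 0.

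The starts of 6 member genes are shown, chosen by both their change and their words, so they are examples and show no relation between them. Of the 6 genes that fell, 4 had a start window with an E2F-type word, a short sequence common near the starts of cell cycle genes, while RBBP7 and RBBP4 had none in any of their 4 windows. The 4 with the word are shown beside RBBP7, which fell without it, and PHF1, which rose without it. Sequences and start sites come from RefSeq on GRCh38.p14. Each is 215 bases long, 5′ to 3′ on the strand of the gene, and runs from 200 bases before the start through the first 15 transcribed bases. Capitals mark E2F-type words (TTTCCCGC, TTTGGCGC, TTTCGCGC or TTTGCCGC) and the CCAAT box, each on either strand, so that ATTGG is CCAAT on the other strand. The stretches are EZH2 at chr7:148884277-148884491 (minus strand), SUZ12 at chr17:31936807-31937021 (plus strand), MTF2 at chr1:93079083-93079297 (plus strand), PHF19 at chr9:120877174-120877388 (minus strand, the upstream of its listed starts), RBBP7 at chrX:16870348-16870562 (minus strand, also the upstream start) and PHF1 at chr6:33410814-33411028 (plus strand).
EZH2: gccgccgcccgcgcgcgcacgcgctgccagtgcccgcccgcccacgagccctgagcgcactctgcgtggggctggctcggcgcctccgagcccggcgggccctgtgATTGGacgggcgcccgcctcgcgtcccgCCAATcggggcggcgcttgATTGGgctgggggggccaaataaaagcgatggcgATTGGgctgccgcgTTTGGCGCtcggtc
SUZ12: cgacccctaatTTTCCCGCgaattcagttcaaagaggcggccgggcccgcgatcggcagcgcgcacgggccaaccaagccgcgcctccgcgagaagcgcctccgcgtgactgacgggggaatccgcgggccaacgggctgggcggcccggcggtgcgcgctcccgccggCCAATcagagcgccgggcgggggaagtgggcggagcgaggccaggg
MTF2: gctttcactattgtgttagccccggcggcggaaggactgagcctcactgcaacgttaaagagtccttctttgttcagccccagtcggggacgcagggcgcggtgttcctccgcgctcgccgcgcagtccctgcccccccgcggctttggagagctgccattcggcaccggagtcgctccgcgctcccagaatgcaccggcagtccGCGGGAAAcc
PHF19: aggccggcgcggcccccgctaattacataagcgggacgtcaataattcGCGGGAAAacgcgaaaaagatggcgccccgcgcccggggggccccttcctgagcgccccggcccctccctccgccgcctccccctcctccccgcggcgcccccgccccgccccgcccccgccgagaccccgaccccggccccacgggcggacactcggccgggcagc
RBBP7: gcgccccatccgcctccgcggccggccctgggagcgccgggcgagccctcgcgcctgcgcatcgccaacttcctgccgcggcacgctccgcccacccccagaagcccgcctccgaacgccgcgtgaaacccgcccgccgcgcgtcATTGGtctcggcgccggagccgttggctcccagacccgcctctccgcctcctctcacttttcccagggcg
PHF1: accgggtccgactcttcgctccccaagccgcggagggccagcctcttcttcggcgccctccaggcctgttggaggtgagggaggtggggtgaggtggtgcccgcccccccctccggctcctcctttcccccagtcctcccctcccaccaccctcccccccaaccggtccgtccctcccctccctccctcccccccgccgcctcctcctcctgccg

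The EZH2 stretch held 4 CCAAT boxes, at 94, 66, 47 and 13 bases before the start, and an E2F-type word beginning at base 2 of the transcript. The MTF2 stretch held an E2F-type word at base 6 of the transcript and no CCAAT box. The word lay farther upstream in SUZ12, at 189 bases before the start, and in PHF19, at 152 bases before. The RBBP7 stretch held a CCAAT box at 55 bases before the start and no E2F-type word, and the PHF1 stretch held neither. The other listed start of EZH2 and that of PHF19 had no E2F-type word in their windows.

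RefSeq gave 15 start windows of 300 bases for the 10 members, since some genes have several starts, and which starts these cells use was not tested. An E2F-type word was in 5 of the 15 windows, of 5 members (EZH2, SUZ12, MTF2, PHF19 and EZH1), against 5.02% of the windows of all genes tested and 3.31% of all windows. A CCAAT box was in 10 of the 15 windows, of 7 members (EZH2, SUZ12, EED, RBBP4, RBBP7, PHF19 and JARID2), against 34.7% and 34.6%. The other words searched on both strands were the E-box CACGTG, found in RBBP4 alone (9.69% of the windows of all genes tested), the ETS word CCGGAAG in PHF19 and RBBP7 (17.5%), and the TTTGAA word in SUZ12 alone (10.5%). None of these words overlapped another in the member windows. EZH1, which held an E2F-type word, and EED and JARID2, which held a CCAAT box, were among the members that did not pass the test. A word in a window describes the letters only and does not show that a factor binds there.

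Of the methyltransferases, EZH2 fell and EZH1 did not pass the test. EZH2 (ENSG00000106462, hg38 chr7:148807257-148884321, minus strand) was at 94.3 and 100.3 TPM in NC, and at 50.3 and 50.7 TPM in sh-ANP32B. Both knockdown libraries lay far below both controls, and they differed from each other by less than the controls did. The mean fell from 97.3 ± 4.25 TPM to 50.5 ± 0.245 TPM (SD, n = 2 each), or 51.9% of the NC mean. On the log2(TPM + 1) scale the change was -0.93 (SE 0.053, 95% interval -1.06 to -0.80, limma adjusted p = 2.04e-04). It was the lowest of the 10 members, and 2.28% of all genes tested had a lower log2 fold change.

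EZH1 (ENSG00000108799, chr17:42700275-42745049, minus strand) was at 38.5 and 37.8 TPM in NC, and at 35.1 and 35.4 TPM in sh-ANP32B. The groups did not overlap, but the gap between them was small, and the sh-ANP32B mean of 35.3 ± 0.161 TPM was 92.5% of the NC mean of 38.1 ± 0.490 TPM. The log2 fold change was -0.11 (SE 0.058, 95% interval -0.26 to 0.04, limma adjusted p = 0.176). With median-of-ratios scaling it was -0.19 and passed, with a limma adjusted p of 0.0449, and in the other settings the adjusted p went up to 0.398.

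EZH2 made up a smaller share of the summed TPM of both methyltransferase genes after the knockdown, at 71.0% and 72.6% in NC and 58.9% in each sh-ANP32B library. A share within a library does not depend on how libraries are scaled to each other. The difference was -12.9 percentage points, and the exact permutation test gave p = 0.33, the smallest two-sided p that 2 against 2 libraries allow. EZH2 remained the higher of the pair in all 4 libraries.

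Of the other core subunits, SUZ12 fell and EED did not pass the test. SUZ12 (ENSG00000178691, chr17:31937007-32001038, plus strand), the scaffold, was at 83.5 and 82.5 TPM in NC, and at 67.3 and 62.2 TPM in sh-ANP32B. All knockdown values were below the controls, by more than the gap between libraries of a group. The mean went from 83.0 ± 0.685 TPM to 64.8 ± 3.62 TPM (SD, n = 2 each), with a log2 fold change of -0.35 (SE 0.057, 95% interval -0.50 to -0.21, limma adjusted p = 0.00503). Of all 75-base stretches of the SUZ12 transcripts, 5.72% also occur in SUZ12P1, its pseudogene, which was at 51.7 and 54.7 TPM in NC and at 45.8 and 39.5 TPM in sh-ANP32B. How the authors' counting split such reads is not given in the sources used here, so both levels are uncertain to that extent.

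EED (ENSG00000074266, chr11:86201212-86278813, plus strand), the reader of methylated H3K27, was at 26.0 and 30.6 TPM in NC, and at 25.6 and 28.1 TPM in sh-ANP32B. It was the only member whose groups overlapped. Its means were 28.3 ± 3.23 TPM and 26.9 ± 1.79 TPM, and its log2 fold change was -0.07 (SE 0.102, 95% interval -0.32 to 0.18, limma adjusted p = 0.606). Without NC replicate 2 the value turned to 0.04 (adjusted p = 0.785). No change of EED was detected, and the interval leaves room for small changes in either direction.

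Both histone-binding subunits fell, RBBP7 to a lower percentage of its control level than RBBP4. RBBP7 (ENSG00000102054, chrX:16839283-16870362, minus strand) was at 179.6 and 189 TPM in NC, the highest of the members, and at 108 and 101 TPM in sh-ANP32B. The groups were far apart, and the mean went from 184 ± 6.57 TPM to 105 ± 5.21 TPM, or 56.8% of the NC mean. The log2 fold change was -0.81 (SE 0.054, 95% interval -0.94 to -0.68, limma adjusted p = 2.84e-04). RBBP7 shares 179 exonic bases with TXLNG on the opposite strand, which was at 23.3 and 22.2 TPM in NC and at 16.3 and 17.3 TPM in sh-ANP32B, and without a stated handling of strand such reads cannot be told apart.

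RBBP4 (ENSG00000162521, chr1:32651142-32686211, plus strand) was at 147 and 145 TPM in NC, and at 102 and 101 TPM in sh-ANP32B. Replicates were within a few TPM of each other in both groups, and the mean fell to 69.7% of the NC mean (146 ± 0.826 TPM against 102 ± 0.734 TPM). The log2 fold change was -0.52 (SE 0.040, 95% interval -0.62 to -0.42, limma adjusted p = 4.34e-04). RBBP4 had more sequence in common with other genes than any other member, as 24.5% of its 75-base stretches recur elsewhere, 21.8% in SYNC, which overlaps it on the opposite strand over 2160 exonic bases and was not listed in the table. Its pseudogene RBBP4P1 holds 1.40% of the stretches, and was at 22.9 and 19.4 TPM in NC and at 16.0 and 14.0 TPM in sh-ANP32B. EZH1, EZH2, JARID2, PHF19, MTF2 and PHF1 had 0 shared stretches.

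RBBP4 supplied 44.9% and 43.5% of the summed TPM of RBBP4 and RBBP7 in NC, and 48.5% and 50% in sh-ANP32B. The share was higher in both knockdown libraries, by 5.07 percentage points on average, with the exact permutation p again at 0.33. Both proteins also belong to chromatin assembly factor, histone deacetylase and remodelling complexes, so their levels are not specific to PRC2.

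The Polycomb-like subunits, which guide PRC2.1 to unmethylated CpG islands, moved in both directions. PHF19 and MTF2 fell and PHF1 rose. PHF19 (ENSG00000119403, chr9:120855651-120894896, minus strand) was at 159 and 179 TPM in NC, and at 109.7 and 108 TPM in sh-ANP32B. The controls differed from each other by more than the knockdown libraries did, yet the groups stayed well apart. The mean went from 169 ± 13.7 TPM to 109 ± 1.53 TPM, or 64.3% of the NC mean, with a log2 fold change of -0.63 (SE 0.064, 95% interval -0.79 to -0.47, limma adjusted p = 9.89e-04).

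MTF2 (ENSG00000143033, chr1:93079235-93139079, plus strand) was at 40.1 and 36 TPM in NC, and at 27.9 and 29.2 TPM in sh-ANP32B. Both knockdown values were below both controls. The mean went from 38.1 ± 2.93 TPM to 28.6 ± 0.862 TPM (SD, n = 2 each), with a log2 fold change of -0.40 (SE 0.078, 95% interval -0.60 to -0.21, limma adjusted p = 0.00971). Of the 6 members that fell it had the highest adjusted p over the settings, up to 0.0450.

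PHF1 (ENSG00000112511, chr6:33410399-33416453, plus strand) was at 9.72 and 7.55 TPM in NC, the lowest of the members, and at 18.7 and 22.6 TPM in sh-ANP32B. Every knockdown value was above every control value, although the replicates of this low gene differed more from each other, in proportion, than those of the other members. The mean rose from 8.64 ± 1.53 TPM to 20.6 ± 2.76 TPM, or 239% of the NC mean. The log2 fold change was 1.17 (SE 0.155, 95% interval 0.78 to 1.56, limma adjusted p = 0.00248), higher than in 95.4% of all genes tested. PHF1 shares 12 exonic bases with CUTA on the opposite strand, which was at 123 and 115 TPM in NC and at 108 and 114 TPM in sh-ANP32B.

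Within the Polycomb-like family, PHF19 held 76.1% and 80.4% of the summed TPM in NC, and 70.2% and 67.5% in sh-ANP32B. PHF1 held 4.65% and 3.4% in NC, and 11.9% and 14.2% in sh-ANP32B. The PHF19 share was lower by 9.42 percentage points and the PHF1 share higher by 9.04 points, with no overlap between groups and an exact permutation p of 0.33 for each. The MTF2 share was 19.2% and 16.2% in NC and 17.9% and 18.3% in sh-ANP32B, so its groups overlapped, and the difference of 0.380 points turned to -1.12 points without NC replicate 2. PHF19 was the highest of the family in each library.

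**Figure D3:**
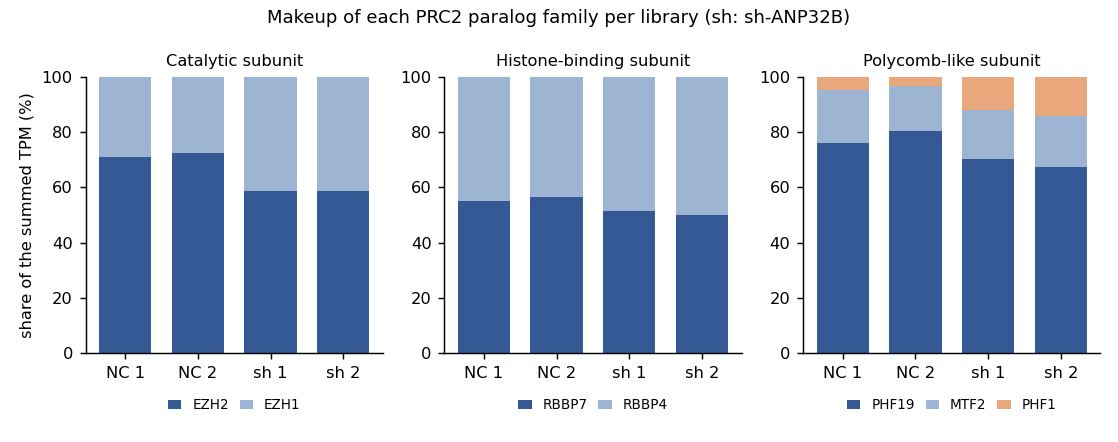
Stacked shares, in percent of the summed TPM within each library, of the genes of each PRC2 paralog family (EZH1 and EZH2; RBBP4 and RBBP7; PHF1, MTF2 and PHF19) for NC 1, NC 2 and both sh-ANP32B libraries. The EZH2 share goes from a mean of 71.8% to 58.9%, the RBBP4 share from 44.2% to 49.3%, and the PHF1 share from 4.03% to 13.1%.

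JARID2 (ENSG00000008083, chr6:15246069-15522042, plus strand), which marks PRC2.2 and binds ubiquitinated histone H2A, was at 17.1 and 17.5 TPM in NC, and at 15.5 and 16.8 TPM in sh-ANP32B. The groups did not overlap, by a narrow margin. Its means were 17.3 ± 0.235 TPM and 16.2 ± 0.859 TPM, and its log2 fold change of -0.09 did not pass (SE 0.087, 95% interval -0.31 to 0.12, limma adjusted p = 0.417). JARID2 made up 7.58% and 7.29% of the summed TPM of JARID2 and the Polycomb-like genes in NC, and 9.05% and 9.52% in sh-ANP32B, a difference of 1.85 percentage points with an exact permutation p of 0.33. That sum also holds PHF19 and MTF2, which fell.

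Ranked by mean TPM, the order in NC was RBBP7, PHF19, RBBP4, EZH2, SUZ12, EZH1, MTF2, EED, JARID2 and PHF1. EZH1 and MTF2 were the only neighbours in that order whose libraries overlapped. In sh-ANP32B the values of PHF19, RBBP7 and RBBP4 overlapped at the top, followed by SUZ12, EZH2, EZH1, then MTF2 and EED, which overlapped, and then PHF1 and JARID2. EZH2 was above SUZ12 in both control libraries and below it in both knockdown libraries. PHF1 was below JARID2 in both control libraries and above it in both knockdown libraries.

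Of 5 further PRC2 subunits and inhibitors, 4 were listed and tested, with a median log2 fold change of -0.32. Of these 4, 2 were lower and 1 higher, against 19.7% and 26.0% of all genes tested. EPOP, which joins PRC2.1, was at 14.3 and 14.2 TPM in NC and at 9.89 and 10.4 TPM in sh-ANP32B (log2 fold change -0.45, limma adjusted p = 0.0137). LCORL, a PRC2.1 partner, was at 17.7 and 18.5 TPM in NC and at 13.2 and 14.4 TPM in sh-ANP32B (-0.37, limma adjusted p = 0.0227). LCORL shares 1634 exonic bases with NCAPG on the opposite strand, a condensin gene that was at 46.6 and 46.7 TPM in NC and at 24 and 21.9 TPM in sh-ANP32B, and without a stated handling of strand their reads cannot be told apart. LCOR, the paralog of LCORL, went the other way, at 12.5 and 14.3 TPM in NC and at 22.5 and 18.7 TPM in sh-ANP32B (0.58, limma adjusted p = 0.0135). AEBP2, the partner of JARID2, did not pass, at 12.3 and 11.7 TPM in NC and at 10.9 and 8.67 TPM in sh-ANP32B (-0.28, limma adjusted p = 0.141). These calls rested on few libraries. EPOP and LCORL passed in none of the fits without NC replicate 1, NC replicate 2 or sh-ANP32B replicate 1 (adjusted p up to 0.0586 and 0.0936), and LCOR did not pass without NC replicate 1 (adjusted p = 0.0548).

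KDM6A and KDM6B remove the methyl groups that PRC2 adds. KDM6B was at 17.7 and 17.9 TPM in NC, and at 38.5 and 39.9 TPM in sh-ANP32B. It rose in both knockdown libraries, with a log2 fold change of 1.09 (SE 0.068, limma adjusted p = 2.39e-04). KDM6A was at 14.5 and 12.8 TPM in NC and at 16.7 and 17.1 TPM in sh-ANP32B, a log2 fold change of 0.29 that did not pass (limma adjusted p = 0.0610), except when TPM were rescaled without mitochondrial genes.

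PRC1, the other Polycomb complex, attaches ubiquitin to histone H2A and reads methylated H3K27. Its 20 core genes were all listed and tested. Of these, 6 fell and 6 rose, against 19.7% and 26.0% of all genes tested, and 8 did not pass. The median log2 fold change of the 20 was 0.02, and it was -0.06 with median-of-ratios scaling and with quantile normalization. Without NC replicate 1 or sh-ANP32B replicate 1 the genes that rose numbered 3. The lowest values were those of PCGF6 (-1.0, limma adjusted p = 0.00151), of the ubiquitin ligase RNF2 (-0.86, adjusted p = 0.00153), of SCML2 (-0.80, adjusted p = 0.00154) and of BMI1 (-0.72, adjusted p = 1.66e-04). RNF2 was at 17.3 and 18.3 TPM in NC and at 9.74 and 9.03 TPM in sh-ANP32B, whereas its paralog RING1 was at 1.5 and 2.51 TPM in NC and at 4.69 and 3.75 TPM in sh-ANP32B (0.81, limma adjusted p = 0.0363, lost in 5 of 11 settings with values up to 0.142). CBX7, a reader of methylated H3K27, rose from 7.29 and 6.80 TPM to 14.9 and 15 TPM (0.99, limma adjusted p = 0.00119), and it shares 1338 exonic bases with a listed gene on the opposite strand that has no symbol.

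Of 9 variant PRC1 partners, 6 were tested, and USP7 and SKP1 were lower (log2 fold changes -0.37 and -0.34) with none higher. For this list and the next, the shares among all genes tested were 19.7% lower and 26.0% higher. All 9 genes of PR-DUB, the complex that removes the ubiquitin set by PRC1, were tested, with 4 lower and 3 higher and a median log2 fold change of -0.15. Its deubiquitinase BAP1 was at -0.21 and its partner ASXL1 at -0.34 (limma adjusted p = 0.00170), while MBD6 was at 0.61 (limma adjusted p = 9.67e-04). MBD6 shares 516 exonic bases on the opposite strand with DCTN2, which was at 75.8 and 76.1 TPM in NC and at 66.8 and 79.1 TPM in sh-ANP32B. Without a stated handling of strand, reads from those bases cannot be told apart. Without NC replicate 2, sh-ANP32B replicate 1 or sh-ANP32B replicate 2 the lower genes numbered 2, and BAP1 did not pass (adjusted p up to 0.0752). The plot of gene lists sets these values beside the PRC2 genes.

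**Figure D4:**
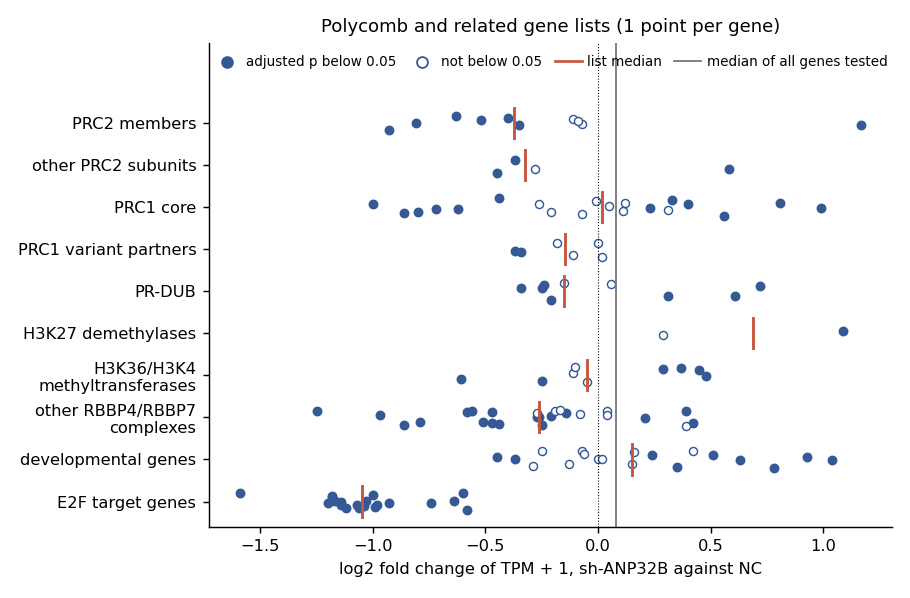
Log2 fold change of TPM + 1 in sh-ANP32B against NC, 1 point per tested gene and 1 row per list, filled where the limma adjusted p was below 0.05, with the list median as a short line and the median of all genes tested as a long line. The PRC2 genes lie mostly left of the long line with PHF1 alone on the right, the PRC1 genes lie on both sides, and all 20 E2F target genes lie to the left, between -1.59 and -0.58.

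Proliferation genes and monocyte markers moved in the same libraries. All 20 of a list of E2F target genes of the cell cycle were lower, at a median of -1.05 on the log2 scale, and their summed level was 2916 and 2927 TPM in NC and 1392 and 1408 TPM in sh-ANP32B. Of 9 monocyte markers, 6 were listed, 5 were higher and none was lower, and their summed level went from 556 and 545 TPM to 5957 and 5923 TPM, while CD14, FCGR3A and CD163 were not listed. Of the granulocyte markers 3 of 5 were listed, with sums of 668 and 654 TPM in NC and 1649 and 1671 TPM in sh-ANP32B. The part of cell division and of cell type in the levels of EZH2 and the other PRC2 genes was not tested. In bulk RNA, fewer cells of a kind and less RNA per cell cannot be told apart.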

How the data were processed

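RNA was extracted with Trizol, libraries were made with the Illumina TruSeq RNA kit, and the reads were aligned by the authors to hg38 with HISAT2 (version 2.0.5), per the labels. The authors deposited 1 TPM value per gene and library. The unit was read from the values, whose totals are nearly equal. The counting tool, the annotation and the handling of strand behind the TPM are not given in the sources used here. Genes listed had a mean of at least 0.5 TPM, so a gene that was not listed may have been expressed at a low level. The study called genes with DESeq2, which needs counts, and that test was not repeated on TPM. Tables of the authors' own comparisons were not used.

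Identifiers were matched to GENCODE version 44 symbols (17290 of 18885). Exonic overlaps and 75-base stretches shared with other annotated transcripts were counted on the same annotation. After a filter that kept genes reaching 1 TPM in 2 or more libraries, NC and sh-ANP32B were compared by limma 3.58.1 (R 4.3.3; functions lmFit and eBayes, trend allowed) on values of log2(TPM + 1), with Benjamini-Hochberg adjustment over all 16937 genes. Fold changes on this scale understate those of low genes. Shares were compared with a two-sided exact permutation test over libraries. The fit was tested on simulated data. Tables were made in Python (version 3.11.15) with pandas (version 2.3.3), numpy (version 2.4.6) and scipy (version 1.17.1), and plots with matplotlib (version 3.10.9).

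The PRC2 genes and the other lists were chosen with earlier results of these data known. From the other lists, genes with a limma adjusted p below 0.05 and a mean of at least 2 TPM could be named, up to 4 with the lowest and 4 with the highest log2 fold change, and any gene of lists of up to 9 genes. Not all of these are printed. Alternatives were a pseudocount of 0.1 TPM, no filter, median-of-ratios scaling, quantile normalization, a replicate block, each library left out in turn and other call limits. A filter of at least 1 TPM in every library and rescaling without mitochondrial genes were chosen after seeing the data. Protein sequences were not used here.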

Additional observations from a re-analysis of the deposited data

How the results depend on the processing

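The counts of 6 lower and 1 higher PRC2 gene were unchanged under a pseudocount of 0.1 TPM, no filter, quantile normalization, both added settings and each library left out. They were 7 lower and 1 higher with median-of-ratios scaling, and 4 lower and 1 higher with the fold limit of 0.5. Same-numbered libraries did not deviate together over all genes tested (correlation -0.0232), which does not show whether they shared a culture or a preparation. With the replicate number as a block, 6 PRC2 genes were lower and 1 higher. Over the settings the log2 fold change of EZH2 ran from -1.01 to -0.89 and that of PHF1 from 1.01 to 1.33. EED reversed to 0.04 without NC replicate 2 (-0.18 to 0.04 over the libraries left out), and so did the difference in the MTF2 share, to -1.12 points, where leaving out each library gave -1.12 to 1.88.

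In the lists of other PRC2 subunits, H3K27 demethylases, PRC1 core, PRC1 variant partners and PR-DUB together, 25 genes were called, 14 lower and 11 higher. These lists had 4, 2, 20, 6 and 9 tested genes, in that order. Of all genes tested, 19.7% were lower and 26.0% higher. With the fold limit of 0.5 those shares were 10.1% and 17.9% by the adjusted p, and 10.8% and 20.2% by the unadjusted p. With that limit and either p rule the counts in the lists became 12, 5 and 7. Without each library they were 19 to 22, 10 to 12 and 7 to 10, with 7 higher genes without NC replicate 1. The replicate block gave 14 lower and 9 higher. The fold limit removes small changes by construction, and fewer libraries widen the error. With 2 libraries a group and no read numbers, members with a small change, such as EED and JARID2, are limited by the spread between libraries.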

Other observations

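Of 69 developmental genes of the kind held silent by PRC2 in many cell types (HOX, PAX, SOX and similar transcription factors, and CDKN1C, CDKN2A and CDKN2B), 21 were listed and 19 were tested. Of these, 7 were higher, 2 were lower and 10 did not pass, against 26.0% higher and 19.7% lower of all genes tested. The median log2 fold change was 0.15, beside 0.08 for all genes tested. It was -0.04 with quantile normalization, where the median of all genes was also -0.04. A gene near 0 TPM in 1 group entered the test only if it was high enough in the other. With at least 1 TPM in every library, 16 were tested, with 6 higher and 2 lower. Their median was then 0.09, beside 0.04 for all genes tested. The higher genes numbered 4 with quantile normalization and without NC replicate 2 or sh-ANP32B replicate 1, and the lower genes numbered 1 without NC replicate 1. CDKN2B, an inhibitor of the cell cycle, was at 1.84 and 2.86 TPM in NC and at 6.22 and 5.42 TPM in sh-ANP32B (log2 fold change 1.04, limma adjusted p = 0.0110). CDKN2A, its neighbour, was far more abundant and lower, at 242 and 244 TPM in NC and at 188 and 187 TPM in sh-ANP32B (-0.37, limma adjusted p = 8.73e-04). HOXC4 (0.51, limma adjusted p = 0.00200) and HOXC6 (0.63, limma adjusted p = 0.00571) were higher, and as they share 484 exonic bases on the same strand, their levels are uncertain. HOXA9, which marks this kind of leukemia, was at 184 and 186 TPM in NC and at 175 and 176 TPM in sh-ANP32B.

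Genes of other complexes that contain RBBP4 or RBBP7 were mostly lower. Of 26 looked for, 25 were tested, with 15 lower, 3 higher and a median log2 fold change of -0.26. Of all genes tested, 19.7% were lower and 26.0% higher. Of the 25, 14 were lower and 4 higher when TPM were rescaled without mitochondrial genes. With median-of-ratios scaling, 17 were lower and 2 higher. SAP30, a subunit of the SIN3 deacetylase complex, was at 57.4 and 65.9 TPM in NC and at 25.5 and 25.1 TPM in sh-ANP32B (-1.25, limma adjusted p = 2.72e-04). CHAF1A and CHAF1B, which with RBBP4 form chromatin assembly factor 1, were at -0.86 (limma adjusted p = 2.66e-04) and -0.97 (limma adjusted p = 5.56e-04). The 3 higher genes were SIN3B (0.42, limma adjusted p = 0.0230), CHD3 (0.39, limma adjusted p = 0.00188) and BPTF (0.21, limma adjusted p = 0.0342). BPTF did not pass with median-of-ratios scaling or with the replicate block. Over the settings, the log2 fold change of BPTF ran from 0.13 to 0.24 and that of SIN3B from 0.27 to 0.58. CHD3 was at 189 and 200 TPM in NC and at 262 and 249 TPM in sh-ANP32B, and its log2 fold change ran from 0.31 to 0.45 over the settings.

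Methyltransferases of H3K36 and H3K4, marks known to oppose PRC2, moved both ways. Of the 9 tested, 2 were lower and 4 higher, against 19.7% and 26.0% of all genes tested. The higher genes numbered 2 with median-of-ratios scaling and without NC replicate 1, sh-ANP32B replicate 1 or sh-ANP32B replicate 2, and 1 was lower without NC replicate 2. NSD2 was at 181 and 226 TPM in NC and at 132 and 133 TPM in sh-ANP32B (-0.61, limma adjusted p = 0.00587), while KMT2C and ASH1L were higher on the same scale, by 0.48 and 0.45.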
